A study of Mus musculus with 102 samples.

Results

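Mest, Peg10 and Sgce are 3 paternally expressed imprinted genes of mouse chromosome 6, and the CpGs described here are all those of the capture bisulfite table that lie in 2 windows around them. The windows were set by position in mm9, from 30680000 to 30710000 for Mest and from 4640000 to 4715000 for Sgce and Peg10, and were selected on the levels of these CpGs at each day and in wild type, which were known when they were set. They hold 140 and 199 CpGs, together 339 of the 2177608 CpGs measured. Because all 8 columns of the table were used in that choice, every capture value below is a description without a test.

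At an imprinted gene the DNA of a single parental allele carries methylation that was laid down in the egg or the sperm. Mest, Peg10 and Sgce have promoters that are methylated on the maternal allele, so that in a cell population about equal parts of the DNA are methylated and unmethylated. After fertilisation such a mark is copied by DNMT1, the enzyme that methylates the new strand at replication, and it is kept with the help of the zinc finger protein ZFP57, which recognises methylated TGCCGC. Mest encodes a protein of the alpha/beta hydrolase fold, Peg10 derives from a retrotransposon and is needed for the placenta, and Sgce encodes epsilon-sarcoglycan, a membrane protein.

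The cells were mouse embryonic stem cells on a C57BL6/J background in which loxP sites flank the catalytic exons of Dnmt3a and Dnmt3b, the de novo DNA methyltransferases. TTKO cells are a single CRISPR clone of that line with mutated Tet1, Tet2 and Tet3, the enzymes that oxidise methylated cytosine. The wild type is the line from which TTKO cells were made, in which Tet, Dnmt3a and Dnmt3b genes are intact. TTKO cells were measured without transduction, on day 0, and on days 4, 8, 10, 13, 17 and 29 after transduction with Cre protein, which deletes the floxed exons in most but not all alleles. Wild-type cells were measured on day 0 without transduction. Each of these 8 conditions had 3 replicates, which the deposited table joins in 1 column, so no replicate error can be given, and errors below are the SD over CpGs or a counting interval. The effect of the TET mutations and that of the clone cannot be told apart. Both parental alleles have the same strain background, and the parent of origin of a read was not known. The cells grew on feeder cells before transduction and were moved to feeder-free plates soon after it. The part of this change in the step from day 0 to day 4 was not tested. No mock-transduced cells were measured by capture. The effects of the deletion, of the transduction and of time in culture therefore cannot be told apart.

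The median coverage of the 339 CpGs was lowest on day 8, with 155 reads, and highest on day 17, with 260, and no value rested on fewer than 50 reads. All 339 positions, like the other positions of the table, read CG in the mm9 sequence. Neighbouring CpGs share DNA fragments and the reads carry no molecular identifiers, so the interval of a single CpG covers counting error at most. Intervals from summed reads count a fragment again at each CpG it covers, so they are narrower than the counting error. Of stem cell genes, the promoters of Pou5f1, Nanog, Sox2, Zfp42, Esrrb, Klf4, Tdgf1 and Dppa4 were read. All 8 genes had mean levels of 1.16 to 6.43% on day 0. The median over 16813 coding promoters was 6.41%, so such levels are common and do not identify stem cells.

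Mest (ENSMUSG00000051855.8) lies on the plus strand from 30673547 to 30698457, and its annotated start positions fall in 4 clusters. The cluster with the most coding transcripts, 4, spans 30688050 to 30688063 and is called the Mest start below, a choice made with the levels in view. Sgce (ENSMUSG00000004631.9) runs on the minus strand from 4697204 down to 4624350. Peg10 (ENSMUSG00000092035.1) runs on the plus strand from 4697306 to 4710514, so that the outermost Sgce start and the Peg10 start lie 102 bp apart and point away from each other. A promoter is here all measured CpGs within 1000 bp of these starts, which gave 73 CpGs for Mest and 98 for Sgce and Peg10 together. All 98 lie within 1000 bp of the Peg10 start, and 87 of them lie in the Sgce window too.

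The sequence that carried these CpGs is shown for 4 places, from the mm9 plus strand, with measured CpGs in capitals. The opening sequence is the 300 bases before the Mest start, at chr6:30687750-30688049. The next is the gap between the Sgce and Peg10 starts, chr6:4697205-4697305. Then come the 300 bases of Peg10 intron 1 that hold the most measured CpGs, at chr6:4698083-4698382, and for contrast 300 bases of an Sgce intron, at chr6:4683390-4683689.
Mest promoter: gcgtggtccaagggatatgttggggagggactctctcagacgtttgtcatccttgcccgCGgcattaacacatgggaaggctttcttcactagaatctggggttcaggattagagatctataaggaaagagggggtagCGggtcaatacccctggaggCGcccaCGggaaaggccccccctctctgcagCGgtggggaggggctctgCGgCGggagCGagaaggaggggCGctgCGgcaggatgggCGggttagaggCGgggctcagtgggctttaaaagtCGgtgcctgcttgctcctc
Sgce and Peg10, between the starts: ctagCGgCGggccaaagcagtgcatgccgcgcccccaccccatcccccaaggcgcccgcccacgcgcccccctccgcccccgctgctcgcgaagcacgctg
Peg10 intron 1: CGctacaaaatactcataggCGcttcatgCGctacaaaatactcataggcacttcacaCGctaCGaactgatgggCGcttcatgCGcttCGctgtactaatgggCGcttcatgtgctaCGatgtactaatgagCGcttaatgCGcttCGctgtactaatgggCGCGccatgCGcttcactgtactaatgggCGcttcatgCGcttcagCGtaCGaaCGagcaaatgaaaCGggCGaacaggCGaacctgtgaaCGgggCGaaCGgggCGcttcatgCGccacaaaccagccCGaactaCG
Sgce intron: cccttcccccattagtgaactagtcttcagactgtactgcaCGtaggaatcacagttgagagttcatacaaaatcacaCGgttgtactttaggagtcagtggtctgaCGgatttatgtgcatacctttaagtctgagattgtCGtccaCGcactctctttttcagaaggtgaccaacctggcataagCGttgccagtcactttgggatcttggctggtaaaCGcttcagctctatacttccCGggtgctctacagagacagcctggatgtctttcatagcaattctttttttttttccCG

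The Mest sequence holds 16 CpGs, of which 13 were measured, with a mean level of 45.0% on day 0 and 38.3% on day 29. In the gap between the Sgce and Peg10 starts only 2 of 13 CpGs were measured, so the middle of this promoter is nearly unseen. All 31 CpGs of the Peg10 intron sequence were measured, with 42.9% on day 0 and 41.0% on day 29. This stretch is built of repeats, and CGCTTCATGCGC, among its most frequent runs of 12 bases, occurs 4 times in it and 8 times in the whole measured stretch, counted on both strands. The Sgce intron sequence has 9 CpGs in the same length, all measured, and its mean was 72.4% on day 0 and 25.9% on day 29.

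In TTKO cells the Mest promoter stayed near the middle of the scale at every time point. Its mean over 73 CpGs was 45.9% ± 7.73 (SD over CpGs) on day 0. It was 39.6% on day 4, 41.1% on day 8, 41.3% on day 10, 39.2% on day 13, 41.2% on day 17 and 42.8% ± 9.24 on day 29. The highest mean was thus the one before Cre, the lowest that of day 13, and day 29 was the closest to day 0. The difference between days 29 and 0 was -3.05 percentage points, and 93.4% of the day 0 mean was retained. With reads summed over CpGs it was -2.54 points (95% Newcombe interval -3.50 to -1.59). The mean difference at the 26 CpGs with at least 200 reads in all 8 columns was -1.81 points.

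At the Sgce and Peg10 promoter the mean over all CpGs moved less until day 13, while parts of it moved by more, as given below for Peg10 exon 1 and the Sgce side. The mean over 98 CpGs was 43.6% ± 3.82 on day 0, 42.1% on day 4, 43.3% on days 8 and 10, and 43.0% on day 13. Later it was 40.5% on day 17 and 39.9% ± 4.82 on day 29. The last 2 time points were the lowest. The difference between days 29 and 0 was -3.70 points, and 91.5% of the day 0 mean was retained. Summed reads gave -3.14 points (95% Newcombe interval -4.06 to -2.22). At the 12 CpGs with at least 200 reads in all columns the mean difference was -1.80 points.

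Over all CpGs of the table the mean was 35.8% before Cre and 19.6% on day 29. The closer comparison is with the 188373 CpGs that also had 40 to 60% on day 0, a band that held 55 of the 73 Mest promoter CpGs and 83 of the 98 at Sgce and Peg10. Their means were 50.8% on day 0, 47.7% on day 4, 40.1% on day 8, 35.6% on day 10, 31.9% on day 13, 24.8% on day 17 and 15.9% on day 29. The median share of the day 0 level that they retained was 29.3%, with quartiles of 20.8 and 38.9%. For Mest promoter CpGs the median retained share was 95.0% (range 50.6 to 111%), and at Sgce and Peg10 it was 92.9% (range 63.2 to 115%). The levels behind these shares are among those on which the windows were selected.

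**Figure D1:**
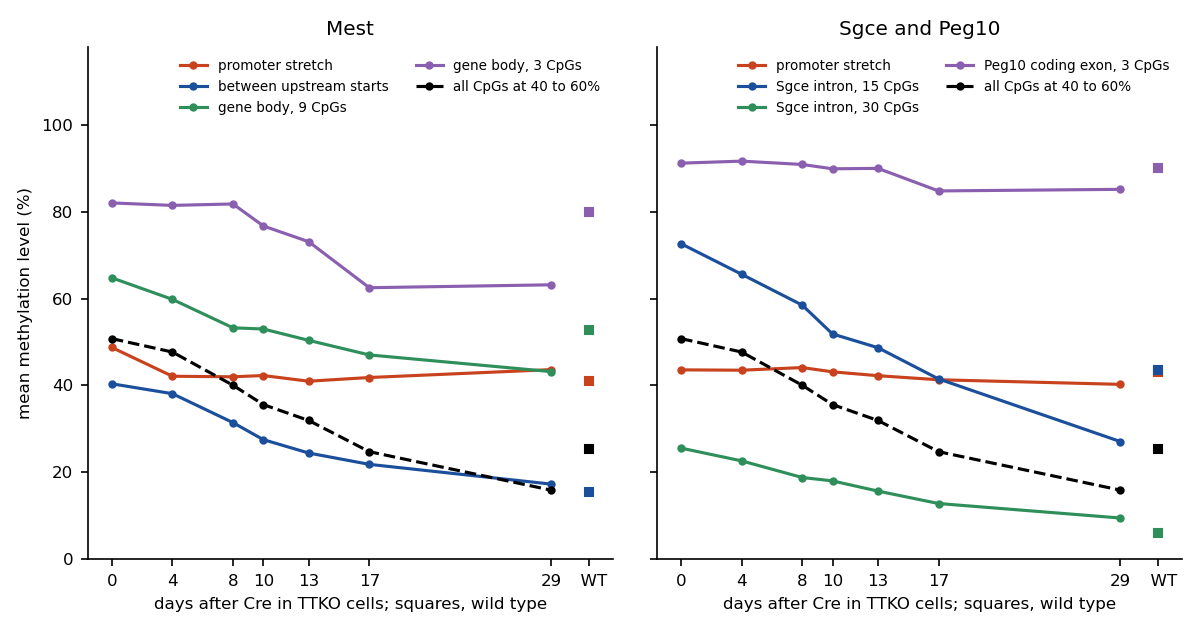
Mean methylation level (%) by days after Cre in TTKO cells, for the measured stretches of the Mest window (left) and the Sgce and Peg10 window (right, without the lone CpG of the Peg10 intron), with wild-type means as squares. The red promoter stretches stay between 40.3 and 48.8%, while the dashed line, all CpGs with 40 to 60% on day 0, goes from 50.8 to 15.9%.

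Counted CpG by CpG, 3 of the 73 Mest promoter CpGs and 15 of the 98 Sgce and Peg10 promoter CpGs were lower by at least 10 points on day 29, beside 52.4% of all CpGs and 99.3% of those in the band. At a threshold of 5 points the counts were 22 and 32, beside 58.6% of all CpGs and 99.7% of the band, and at 20 points they were 1 and 0, beside 40.8 and 96.6%. None of the 171 was higher by 10 points, beside 0.00367% of all CpGs and 0.00425% of the band. At least 80% of the day 0 level was left at 65 of 73 and at 83 of 98 CpGs, beside 23.2% of all CpGs that had any methylation on day 0 and 0.65% of the band. The 95% interval of a CpG's own difference lay below 0 at 4 Mest CpGs and at 13 Sgce and Peg10 CpGs, beside 61% of all CpGs and 99.2% of the band.

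As a measure of the spread over the 7 TTKO columns, the variance between columns was divided by the variance that binomial sampling at the measured coverage gives. The columns are separate samples, so this spread holds more than counting error. The median ratio was 1.58 at the Mest promoter and 1.22 at Sgce and Peg10, against 18.5 for the CpGs of the band and 4.98 for all CpGs. The median range over the columns was 12.8 points at Mest and 11.1 points at Sgce and Peg10, and 36.9 points in the band.

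The CpG nearest to the Mest start, at 30688057 in the untranslated part of the exon, had 50% of 100 reads on day 0 and 43.2% on day 4. It had 47.2% on day 8, 44.3% on day 10, 46.6% on day 13, 44.2% on day 17 and 52.8% of 127 reads on day 29. Its day 29 and day 0 levels differed by 2.8 points (95% Newcombe interval -10.2 to 15.6). The CpG nearest to the Sgce start, at 4697209 in the gap between the genes, went through 37.3, 42.1, 37.3, 48.9, 31.2, 26.6 and 34.1% in the order of the days. The CpG nearest to the Peg10 start, at 4697355 in the untranslated exon, had 45.8% on day 0, between 39.8 and 49.5% on days 4 to 17, and 40.5% on day 29. At all 3 the interval of the difference between days 29 and 0 included 0.

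Within the Mest promoter the levels spanned 25 to 65.5% on day 0. The lowest, 25% (95% Wilson interval 18.4 to 33.0), was at 30688031, at -19 bp from the start, where day 29 gave 21.4% and wild type 28.1%. The highest, 65.5%, was at 30687434, at -616 bp, with 57.1% on day 29 and 38.8% in wild type. The highest retained share, 111%, belonged to 30688305 in the untranslated exon, which went from 37.7 to 41.8% (difference 4.1 points, 95% interval -7.87 to 16.0). The lowest, 50.6%, belonged to 30687939, at -111 bp, which went from 48.2 to 24.4% (difference -23.8 points, 95% interval -35.0 to -11.7) and had 47.1% in wild type. This CpG had already 30.5% on day 4 and stayed between 26.5 and 40% until day 17. The 2 other Mest promoter CpGs that were at least 10 points lower, at -93 and -90 bp, went from 56.3 to 45.8% and from 55.6 to 43.6%. All 3 thus lie close together, just upstream of the start.

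At Sgce and Peg10 the CpGs differed less among themselves, from 30.2 to 51.8% on day 0. The lowest, at 4698083 in Peg10 intron 1, rested on 53 reads and had 30.9% on day 29. The highest, at 4697501 in the untranslated Peg10 exon, had 47.9% on day 29. The highest retained share, 115%, was that of 4697453 in the same exon (38.3 to 44.1%), and the lowest, 63.2%, that of 4697676 in the intron (42.9 to 27.1%). Of the 15 CpGs lower by at least 10 points, 7 lay in Peg10 exon 1, 4 in Peg10 intron 1, 3 on the Sgce side and 1 between the starts. The 23 CpGs of Peg10 exon 1 had a mean of 45.6% on day 0, 38.8% on day 4, 39.4% on day 8, 41.2% on day 10, 45.7% on day 13, 38.4% on day 17 and 39.7% on day 29. For the 15 CpGs on the Sgce side the means were 40.9% on day 0, 41.3% on day 4, 48.2% on day 8, 44.9% on day 10, 40.8% on day 13, 38.5% on day 17 and 37.5% on day 29. On day 8 exon 1 was thus lower than on day 0 and the Sgce side higher.

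**Figure D2:**
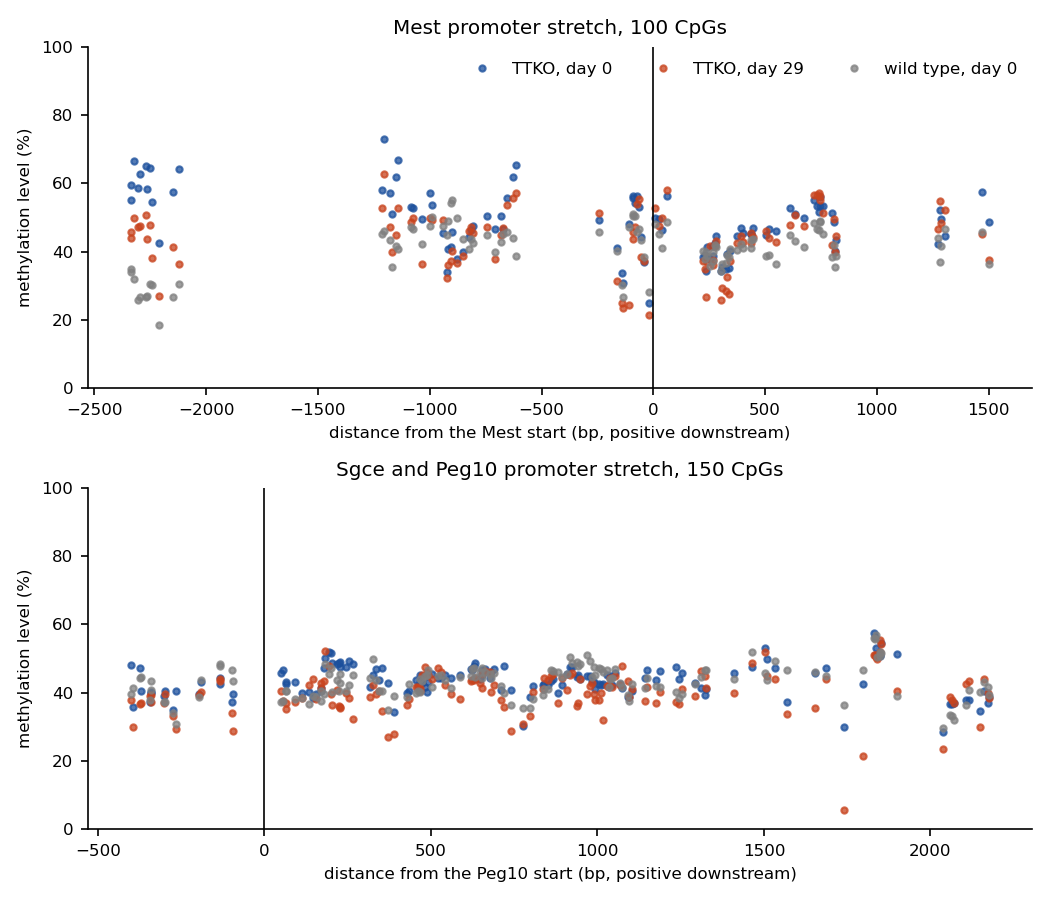
Methylation level (%) of each CpG against its distance from the Mest start (top) and the Peg10 start (bottom) in bp, for TTKO cells on day 0 and day 29 and wild-type cells on day 0. The 3 sets of points overlap at most CpGs of both promoters. They separate at the 12 CpGs more than 2000 bp before the Mest start and, by less, at the 9 CpGs from -1500 to -1000 bp. Those 9 had means of 58.2% on day 0, 48.4% on day 29 and 43.2% in wild type. Single CpGs separate too. Examples, in the same order, are 4699046 in the Peg10 intron (30.0, 5.7 and 36.3%) and 30687939 in the Mest promoter (48.2, 24.4 and 47.1%).

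The intermediate level reached beyond 1000 bp. Split where neighbouring CpGs are more than 1000 bp apart, the 339 CpGs fall into 9 stretches, and the promoter of Sgce and Peg10 belongs to a stretch of 150 CpGs from 4696905 to 4699483. It covers 89.3% of the CpGs in that sequence, and 110 of its CpGs lie in Peg10 intron 1. Its mean was 43.6% ± 4.74 on day 0 and 40.3% ± 6.28 on day 29, and in bins of 500 bp from the Peg10 start the day 0 means lay between 36.5 and 48.6% and the day 29 means between 36.8 and 42.9%. The intron CpGs alone had 43.6% on day 0 and 40.9% on day 29.

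An exception inside this stretch was the CpG at 4699046, 1740 bp downstream of the Peg10 start, picked out after its values were seen. It had 30.0% on day 0, 27.3% on day 4, 41.9% on day 8, 27.5% on day 10, 22.5% on day 13, 15.5% on day 17 and 5.7% on day 29. The difference between days 29 and 0 was -24.3 points (95% interval -33.6 to -14.7), and wild type had 36.3%. The next CpG, at 4699103, went from 42.4 to 21.4%, while the 7 CpGs from 4699137 to 4699157 had 50 to 55.5% on day 29.

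The Mest promoter belongs to a stretch of 100 CpGs from 30685713 to 30689553, with 48.8% ± 9.05 on day 0 and 43.7% ± 8.79 on day 29. Only 62.1% of the CpGs of that sequence were measured. Its 12 outermost CpGs, from 30685713 to 30685929 and over 2000 bp before the start, were set apart after their values were seen. Their mean was 59.1% on day 0, 51.9% on day 4, 46.9% on day 8, 43.3% on day 10, 47.2% on day 13, 42.5% on day 17 and 43.3% on day 29, and all 12 were at least 10 points lower on day 29. In wild type their mean was 28.6%. The next 9 CpGs, at -1212 to -1034 bp, had means of 58.2% on day 0, 48.4% on day 29 and 43.2% in wild type, and 6 of the 9 were at least 10 points lower on day 29. These were also set apart after their values were seen. The remaining 79 CpGs of the stretch had 46.1% on day 0, 43.2% on day 29 and 42.6% in wild type, and 5 of them were at least 10 points lower on day 29.

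The CpGs outside the promoter stretches differed from them in the size of the loss. Most CpGs of the promoter stretches were lower on day 29 too, 77 of 100 at Mest and 111 of 150 at Sgce and Peg10, beside 82.6% of all CpGs and 99.9% of the band, with mean differences, day 29 minus day 0, of -5.11 and -3.34 points. Outside them, all 40 at Mest and all 49 at Sgce and Peg10 were lower, as were nearly all CpGs of the band, with mean differences of -22.5 and -25.0 points. Between the upstream starts of Mest, 28 CpGs from 30682504 to 30683392 had a mean of 40.4% ± 19.2 on day 0 and 17.3% ± 14.1 on day 29, and 27 of them were at least 10 points lower. In the Mest gene body, 9 CpGs from 30690723 to 30691109 had 64.8 and 43.2%, and 3 CpGs from 30696298 to 30696414 had 82.1 and 63.2%. In an Sgce intron, 15 CpGs from 4683067 to 4683689 went from 72.7% ± 8.99 to 27.1% ± 13.1, all of them by at least 10 points. A further intron group of 30 CpGs, from 4688045 to 4690240, had 25.6% on day 0 and 9.46% on day 29. A lone CpG in a Peg10 intron, at 4702842, went from 56.1 to 16.9%. The 3 CpGs of a Peg10 coding exon, from 4706525 to 4706538, differed from these: they had 91.2% on day 0 and 85.2% on day 29.

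Within the same day 0 range, 40 to 60%, the promoter stretches and the rest of the same windows had different means on day 29. Their day 0 means were not matched. Of the Mest stretch 74 CpGs had 40 to 60% on day 0, and their means were 49.4% on day 0 and 45.4% on day 29. The 10 CpGs of the same range elsewhere in the Mest window went from 51.4 to 24.6%. At Sgce and Peg10 the 121 such CpGs of the promoter stretch had 45.2 and 41.4%, and the 10 elsewhere had 55.1 and 17.9%. A CpG of each window was picked out after its values were seen. The CpG with the largest loss outside the Mest promoter stretch, 30682673 in a coding exon, had 62.2% of 561 reads on day 0, and 56.4, 43.5, 41.1, 31.3, 27.5 and 18.9% at the following days. At Sgce it was 4683307, with 70.8% of 689 reads on day 0 and then 55.9, 48.1, 40.5, 36.6, 28.3 and 11.9%. Both were lower at every later time point than at the one before it.

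**Figure D3:**
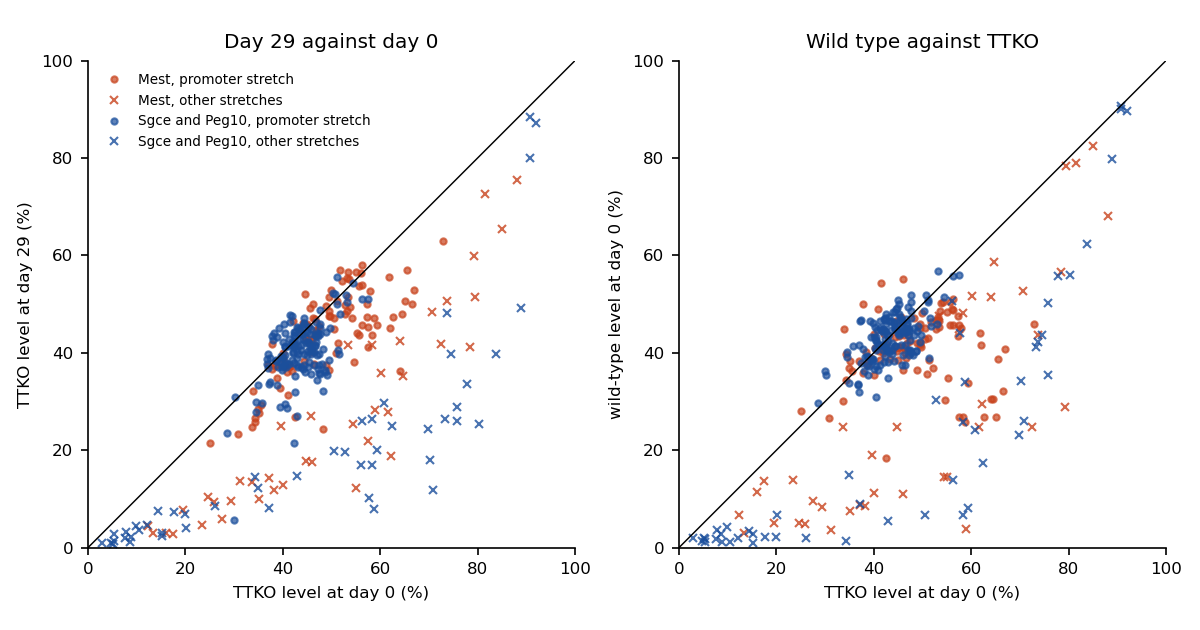
Methylation level (%) of each of the 339 CpGs on day 29 (left) and in wild type (right) against the TTKO level on day 0, with circles for CpGs of the promoter stretches, crosses for the other stretches and the line of equal levels. Most circles lie near the line between 30 and 60%, and most crosses lie below it.

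In wild-type cells the promoter means lay close to those of TTKO cells on day 0. The Mest promoter had 42.6% ± 5.47 in wild type, a difference of -3.26 points from TTKO, and summed reads gave -3.94 points (95% Newcombe interval -4.91 to -2.98). The Sgce and Peg10 promoter had 42.7% ± 4.10, a difference of -0.849 points from TTKO, and the interval from summed reads, -1.39 to 0.512 points, included 0. At the 12 CpGs of this promoter with at least 200 reads the difference was 1.63 points, above 0. At Mest 4 CpGs were at least 10 points lower in wild type and 3 were higher, and at Sgce and Peg10 none was past 10 points in either direction. Beside this, 39.4% of all CpGs and 77.8% of those with 40 to 60% were lower by that much, and 0.515% of all CpGs and 1.04% of the band were higher. The mean of the band was 25.4% in wild type against 50.8% in TTKO cells. The 3 Mest CpGs that were higher in wild type lie at -924, -903 and -879 bp, and the CpG at -903 bp, for example, had 54.3% in wild type and 41.5% in TTKO cells. Of the 4 lower ones, 2 lie next to each other at -626 and -616 bp, with 44.0 and 38.8% in wild type and 61.8 and 65.5% in TTKO cells.

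Outside the promoter stretches the wild-type levels were lower. The 28 CpGs between the upstream Mest starts had 15.4% in wild type and 40.4% in TTKO cells. The 15 CpGs of the Sgce intron had 43.6 and 72.7%, and the 30 CpGs of the other intron group had 6.10 and 25.6%. The 3 CpGs of the Peg10 coding exon, with 90.2 and 91.2%, and the 3 distal CpGs of Mest, with 79.9 and 82.1%, showed little difference.

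A rate of methylation (k_me) and of demethylation (k_de) per day was inferred for each CpG from its TTKO time course, on a grid whose slowest rate is -9.86 on the log2 scale. The median log2 k_de was -9.18 at the Mest promoter and -8.21 at Sgce and Peg10, and -4.23 over the band. The rates of 43 of 73 and 84 of 98 CpGs were separated from the border of the grid, beside 79.1% of all CpGs and 99.9% of the band. None of the 171 had narrow credible ranges (under 2 log2 units for both rates), which 44.8% of all CpGs and 91.5% of the band had. No order between both promoters was read from them. In the Mest stretch, 9 of the 12 outermost CpGs had narrow ranges, and the median log2 k_de of these 12 was -6.56.

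In sequence, both promoters are rich in CpG. Within 1000 bp of the starts the Mest sequence has 54.6 CpGs per 1000 bases and the Peg10 sequence 64.0, against a median of 21.5 over 30018 start windows of coding genes, which vary in length with their start clusters. The ratio of observed to expected CpGs was 0.738 for Mest and 0.804 for Peg10, with a median of 0.357. The hexamer TGCCGC, searched on both strands, occurs 12 times in the Mest window, and 2 of the 30018 windows, Mest included, hold at least that many. It occurs 2 times each in the Sgce and the Peg10 window, and 39.7% of all windows hold it at least 1 time. In the Mest promoter 8 measured CpGs lie inside TGCCGC, with a mean of 50.3% on day 0 and 48.4% on day 29. The other 65 CpGs of the promoter had 45.3 and 42.1%. The hexamer also occurs 1 time between the upstream Mest starts, where its CpG went from 40 to 12.8%. These matches describe letters and not bound sites.

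The promoters most like these were found among 16813 start windows of coding genes with at least 10 measured CpGs, by the mean absolute difference of their means over the 8 columns. For Mest they were Impact (1.71 points), Peg10 (2.07 points), Sgce (2.15 points), Peg3 (3.67 points) and Nnat (4.11 points). For Sgce and Peg10 they were Impact (0.533 points), Mest (2.07 points), Peg3 (2.51 points), Nnat (2.81 points) and C1qtnf1 (3.93 points). Impact, a regulator of translation, Peg3, a zinc finger gene, and Nnat, which encodes neuronatin, are maternally methylated imprinted genes too. The likeness includes the TTKO time course that the choice of Mest, Peg10 and Sgce rested on. Of these 16813 windows 712 had a mean of 40 to 60% on day 0, and their median retained share was 43.6%. At least 80% was retained in 4 of them, those of Mest, Peg10, Sgce and Impact, of which Peg10 and Sgce share most CpGs.

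A list of 15 other maternally methylated imprinted genes was read beside them. The annotation had 13 of these under the name used, all measured, and 5 of them had a start window at 40 to 60% on day 0. Impact went from 45.4% on day 0 to 40.5% on day 29 and had 42.4% in wild type. Peg3 went from 45.8 to 36.0%, with 38.8% in wild type. Nnat went from 47.5 to 31.6%, with 40.4% in wild type. Airn, a long noncoding RNA that silences its neighbours, went from 43.1 to 31.6%, with 44.6% in wild type. Nap1l5, also on chromosome 6, went from 52.9 to 27.7%, with 30.2% in wild type. Impact was the only 1 of these 5 that kept at least 80% of its day 0 mean, and the shares of the 5 ranged from 52.4 to 89.3%. The other 8 genes had all their measured windows outside that range. Among those, the Snrpn window had 29.3% on day 0 and 25.3% on day 29. An annotated start need not be the methylated region of an imprinted gene, so low windows such as those of Mcts2 (6.44%) and Grb10 (6.10% at the lowest) describe the start only.

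**Figure D4:**
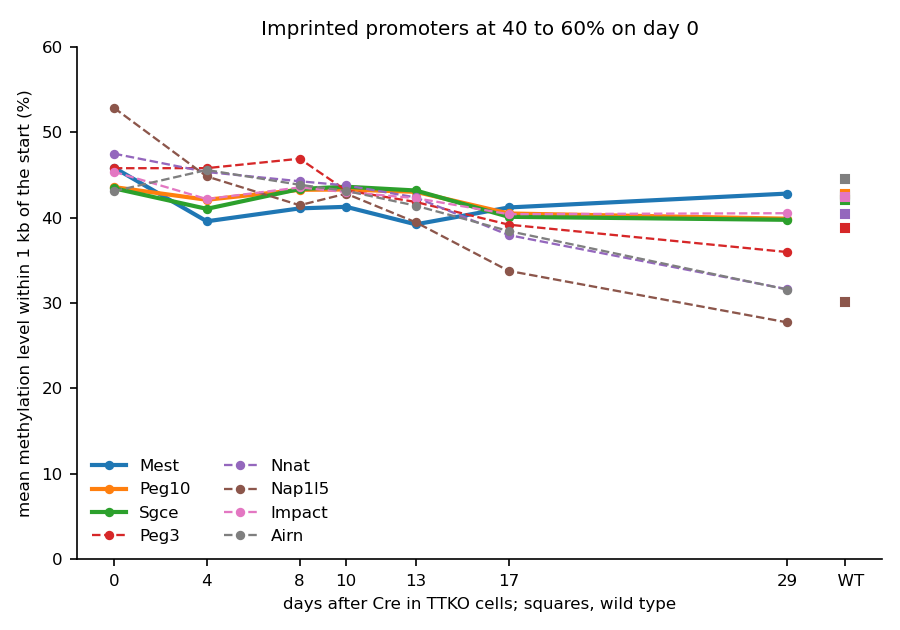
Mean methylation level (%) within 1000 bp of the start by days after Cre in TTKO cells, with wild-type means as squares, for Mest, Peg10 and Sgce (solid lines) and for the 5 listed imprinted genes with 40 to 60% on day 0 (dashed lines). At day 29 the solid lines end at 39.7 to 42.8% and the dashed lines at 27.7 to 40.5%.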

How the data were processed

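Genomic DNA was enriched with SureSelect Mouse Methyl-Seq baits, bisulfite converted and sequenced as 51 bp paired reads. For the authors' alignment to mm9, Rbowtie was run within QuasR, and qMeth gave the levels. They deposited, per CpG and condition, the coverage as a count of reads and the methylation level as a percent, with the 3 replicates joined and at least 50 reads per value. The deposited columns of the authors' own inferred rates, TET activity and confidence were not used. The amplicon tables, with 405 CpGs per line, hold 0 CpGs in the windows, so the planned exact permutation test had no data. The table of amplicon regions was not used.

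The members and lists were chosen with earlier results of these data known. Levels were averaged over CpGs. Methylated reads were recovered from level and coverage, and 100% of values came out whole within 0.05 percentage points. Intervals are 95% Wilson or Newcombe intervals. A call is a difference of at least 10 percentage points. Rates were fitted on the whole table after the study's grid model, but in 1 fit on the joined columns, where the study fitted each replicate and took medians, so the widths and the set of CpGs with narrow ranges are not those of the study. The fit had 80 rates per axis, a DNMT3 decay constant of 0.5 per day, 8% intact alleles and a binomial likelihood. In 5000 simulated time courses, 1351 had narrow ranges, and their fitted and true log2 k_de correlated with r = 0.992 across CpGs. Genes were placed by GENCODE M1 on mm9. Named CpGs were, per promoter, those with the highest and lowest retained share and day 0 level and those nearest to a start. The other CpGs named by position, 4699046, 30682673 and 4683307 among them, were chosen after their values were seen. Named genes were the 5 closest promoters and the listed genes. Alternatives changed the window, the coverage minimum, the averaging, the threshold and the rate model. Python 3.11.15, numpy 2.4.6, pandas 2.3.3, scipy 1.17.1 and matplotlib 3.10.9 were used.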

Additional observations from a re-analysis of the deposited data

How the results depend on the processing

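Of 48 alternative values for both promoters, 35 differed from the reported ones by no more than the distance from the middle of the counting interval to its bounds (for rates the same distance in the credible range, for counts a factor of 1.5), and 13 moved further. For levels and differences the interval was that of summed reads, which is too narrow as stated above. The cause of the moves was not tested. The day 0 level of the Mest promoter was 43.2% within 500 bp, 47.4% within 2000 bp and 46.9% at CpGs with at least 200 reads. Its wild-type difference was -2.24, -4.73 and -4.58 points under the same settings. With at least 200 reads the change to day 29 was -1.81 points at Mest (26 CpGs) and -1.80 points at Sgce and Peg10 (12 CpGs), and the wild-type difference at Sgce and Peg10 was 1.63 points, above 0 instead of below it. By construction, the count of CpGs lower on day 29 moved with its threshold, to 22 of 73 and 32 of 98 at 5 points and to 1 and 0 at 20 points. The median log2 k_de stayed between -9.31 and -9.18 at Mest and between -8.21 and -8.08 at Sgce and Peg10. No paired analysis was possible because the deposited columns join the replicates, and for the same reason no replicate could be left out. At the median member coverage of 155 to 260 reads a difference of a few points was not detectable at a single mid-scale CpG.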

Other observations

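The genes around both windows were read from a list of chromosome 6 neighbours with 13 names for 12 genes, since Cep41 and Tsga14 name the same gene. Of these, 9 genes had a start window with at least 10 measured CpGs. Pon3 and Pon2, paraoxonase genes beyond the 3' end of Peg10, had the highest levels. Pon3 had 62.0% on day 0, 28.1% on day 29 and 9.73% in wild type, and Pon2 had 47.6%, 26.9% and 13.5%. Casd1, beyond the 3' end of Sgce, had 28.4%, 13.5% and 12.4%, and Tsga14, upstream of Mest, had 34.0%, 21.0% and 20.6%. Asb4 went from 16.5 to 3.37%. Copg2, whose 3' end overlaps that of Mest, had 11.3% on day 0 and 4.81% on day 29. Klf14, Ppp1r9a and Calcr were at 1.27 to 5.05% on day 0. Pon2 was the only neighbour with 40 to 60% on day 0, and it retained 56.5% of its day 0 mean. No test was made, since each condition has 1 joined column.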
